A study of Mus musculus with 52 samples.

Results

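The core pluripotency network factors followed here are 10 genes, Pou5f1, Sox2, Esrrb, Nr0b1, Nr5a2, Tbx3, Utf1, Fgf4, Tcl1 and Lin28a. They were chosen by name, with earlier results of these data known. Every probe of the deposited table whose platform symbol was 1 of these 10 was taken. This gave 13 of 20794 probes and 10 of 9030 genes with a symbol. Sox2, Tbx3 and Utf1 had 2 probes each and the other genes 1. All 10 were measured in each of the 13 comparisons, and no member probe carried the constant top value that each array holds.

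Embryonic stem (ES) cells keep the ability to form every tissue of the embryo through a small set of transcription factors that bind each other's genes. Pou5f1 (Oct4) and Sox2 bind DNA together at composite sites, and the nuclear receptors Esrrb and Nr5a2 and the T-box factor Tbx3 reinforce the same state. Nr0b1 (Dax1) is an atypical nuclear receptor without a DNA-binding domain of the usual kind, Utf1 is a chromatin-associated factor, Fgf4 is a secreted growth factor whose signal pushes ES cells towards differentiation, Tcl1 is a coactivator of Akt kinase, and Lin28a binds RNA and blocks maturation of let-7 microRNAs. Utf1 and Fgf4 are textbook targets of Pou5f1 with Sox2.

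RNA of 7 mouse ES lines was compared on 52 two-colour cDNA arrays, 4 for each of 13 direct comparisons: ZFCUMNT, PDCUMNT, HM-1 NT, B6PGA, B6NT, #4 (B6) and HM-1, the last a line widely used for gene targeting. The series description says that the lines came from different sources of donor nuclei and that a pair of them, made by different cloning methods, had nuclei from cumulus cells (somatic cells that surround the egg). It does not say which, and the labels give no genotype, passage, culture condition or meaning for NT, B6, PGA, PD, ZF or CUM. The labels do not tie the lines to their sources of nuclei, so no comparison between sources was made, only between lines. The labels do not say whether the 4 arrays of a comparison came from separate RNA extracts, so the p-values measure the spread between arrays, which may be technical. A protocol field also speaks of organs and of a reference from control animals, which goes against the dye labels, where both dyes of an array carry ES cell RNA. The dye labels were followed.

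Each comparison is named with the upper line first, so that HM-1 NT over HM-1 is the log2 ratio of HM-1 NT to HM-1. Array values are listed in a fixed order, the 2 arrays with the upper line in Cy5 and then the 2 with it in Cy3. The deposited ratios name neither the log base nor the dye on top. They were read as log2 of Cy5 over Cy3, and if they are Cy3 over Cy5 every sign below turns at once. This was not settled.

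The 5 members whose level differed among the lines are given with the 250 bases before an annotated transcription start. These genes are the ones the results turn on, and 4 of them were highest or next to highest in PDCUMNT. The sequences are from the RefSeq annotation of GRCm38.p6, 5' to 3' on the gene's strand. Capitals mark 4 motifs searched on both strands: ATTTGCAT, the octamer read by POU factors, CATTGT, a core read by SOX proteins, AGGTCA, the core of many nuclear receptor sites, and GGGCGG, the GC box.
Pou5f1, chr17:35505782-35506031, plus strand: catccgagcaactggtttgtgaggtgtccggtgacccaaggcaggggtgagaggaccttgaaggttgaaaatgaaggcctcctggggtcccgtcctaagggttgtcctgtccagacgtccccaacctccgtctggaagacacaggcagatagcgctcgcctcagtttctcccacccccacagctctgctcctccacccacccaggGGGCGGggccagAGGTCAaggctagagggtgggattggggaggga
Nr0b1, chrX:86191525-86191774, plus strand: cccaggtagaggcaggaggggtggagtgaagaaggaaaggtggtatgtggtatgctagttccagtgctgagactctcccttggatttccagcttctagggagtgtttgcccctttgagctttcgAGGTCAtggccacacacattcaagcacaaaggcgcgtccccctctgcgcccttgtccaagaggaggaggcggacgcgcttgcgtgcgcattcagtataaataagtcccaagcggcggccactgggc
Utf1, chr7:139943606-139943855, plus strand: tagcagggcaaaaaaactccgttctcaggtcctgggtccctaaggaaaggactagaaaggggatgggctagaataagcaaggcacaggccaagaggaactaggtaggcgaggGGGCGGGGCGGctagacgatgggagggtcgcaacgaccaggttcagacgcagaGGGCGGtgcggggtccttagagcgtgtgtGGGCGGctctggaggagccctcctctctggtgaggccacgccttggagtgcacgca
Fgf4, chr7:144861136-144861385, plus strand: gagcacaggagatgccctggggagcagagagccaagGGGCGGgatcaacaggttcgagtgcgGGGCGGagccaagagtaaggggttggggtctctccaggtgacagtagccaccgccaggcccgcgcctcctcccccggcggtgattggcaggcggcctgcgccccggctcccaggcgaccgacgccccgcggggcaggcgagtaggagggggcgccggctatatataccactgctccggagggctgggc
Lin28a, chr4:134018817-134019066, minus strand: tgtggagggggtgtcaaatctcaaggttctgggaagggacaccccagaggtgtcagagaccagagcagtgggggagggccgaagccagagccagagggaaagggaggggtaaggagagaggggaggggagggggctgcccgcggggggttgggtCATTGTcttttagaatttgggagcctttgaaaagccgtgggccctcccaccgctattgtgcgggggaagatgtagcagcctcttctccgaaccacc
Among all 32851 windows of this length in the table, 1.6% held the octamer, 10.7% the SOX core, 14% the nuclear receptor core and 32.7% the GC box. The table lists 2 windows for Pou5f1, for different transcript starts, and the one not printed held 1 SOX core. The printed Pou5f1 window held 1 GC box and 1 nuclear receptor core, which began 45 and 33 bases before the start. The Nr0b1 window held 1 nuclear receptor core, 126 bases before the start. In the Utf1 window there were 4 GC boxes, the first 2 of which overlap, and in the Fgf4 window 2. The Lin28a window held 1 SOX core. This window lies inside the annotated span of Lin28a (chr4:134003330-134019196), so it precedes a start within the gene and not its 5' end. No octamer was found in these 5 windows, and bases outside the windows were not searched. Windows were listed for 9 of the 10 members, and a match is only a run of letters, not a site shown to be bound.

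Each array had from 17620 to 20200 measured probes, and array medians ran from -0.21 to 0.47. Arrays of opposite dye orientation should differ in sign before they are turned. With each feature's mean removed they correlated above 0.1 in 3 comparisons, #4 (B6) over HM-1 (0.208), B6NT over #4 (B6) (0.113) and ZFCUMNT over B6NT (0.106), and arrays of the same orientation correlated at -0.033 in ZFCUMNT over HM-1 NT. The tests over the lines are also given without these comparisons, but the order of the lines is not. ZFCUMNT over PDCUMNT, which helps to set the PDCUMNT level, correlated at 0.041 in the same orientation and 4.3e-04 in opposite ones. It was not left out of these tests.

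In direct comparisons few member differences passed. Of 130 values (10 genes in 13 comparisons), 2 passed an adjusted p of 0.05 in the joint limma fit (Benjamini-Hochberg within each comparison), Pou5f1 in PDCUMNT over HM-1 and Lin28a in HM-1 NT over B6NT. That is 1.54% of the member values, against 0.532% of 205999 values over all features in all 13 comparisons. An unadjusted p under 0.05 was reached by 26 member values, 20% of them, against 7.79% of all features. All 4 arrays had the same sign for 43 of the 126 member values measured on 4 arrays, 34.1%, against 14.3% over all features. In 24 member values the dye orientations had opposite signs on all 4 arrays, 7 of them for Lin28a, so for these the mean hides a difference that follows the dye. They make up 19% of the 126 member values measured on 4 arrays, against 24.4% over all features.

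The share of all features that passed was 0.254% in HM-1 NT over HM-1, 0.219% in #4 (B6) over HM-1, 0.17% in B6NT over HM-1, 0.494% in B6PGA over HM-1 and 0.101% in ZFCUMNT over HM-1. No member passed in these. It was 1.14% in PDCUMNT over HM-1 and 1.04% in HM-1 NT over B6NT, where 1 member passed in each. Without a member, it was 0.124% in ZFCUMNT over B6NT, 0.245% in B6NT over #4 (B6), 1.22% in B6PGA over #4 (B6), 0.935% in ZFCUMNT over #4 (B6), 0.292% in ZFCUMNT over HM-1 NT and 0.763% in ZFCUMNT over PDCUMNT.

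**Figure D1:**
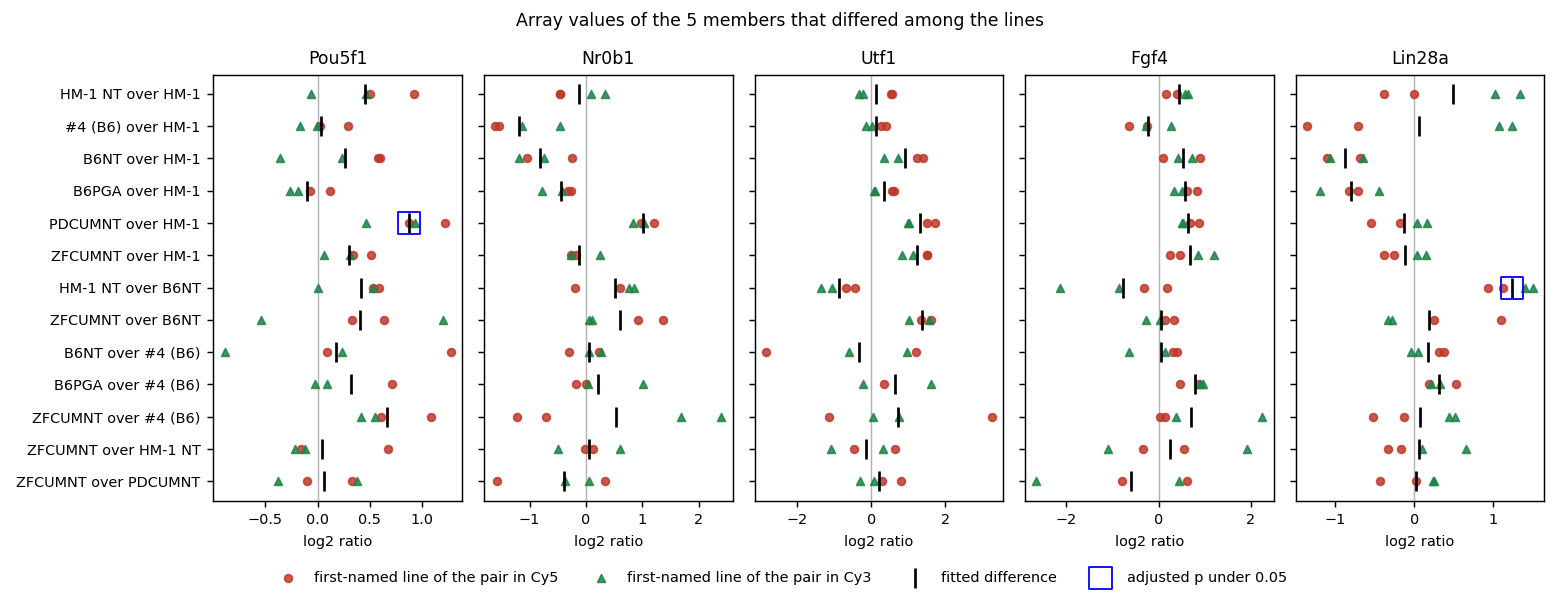
Log2 ratios (x axis, own range in each panel) of Pou5f1, Nr0b1, Utf1, Fgf4 and Lin28a on each array of the 13 comparisons (rows), circles with the upper line in Cy5 and triangles with it in Cy3. Bars mark the fitted difference and boxes the 2 values past an adjusted p of 0.05. The 4 Lin28a arrays of HM-1 NT over B6NT lie between 0.93 and 1.50, and those of #4 (B6) over HM-1 lie on both sides of 0 by dye.

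The 13 comparisons join the 7 lines into a network, so each gene's level in every line can be estimated from all 52 arrays at once. Levels are log2 values relative to the mean of the 7 lines, and a limma F test asked whether any line differed. The test passed for 5 of the 10 members, Pou5f1 (adjusted p = 0.0016), Nr0b1 (adjusted p = 0.0020), Lin28a (adjusted p = 0.028), Utf1 (adjusted p = 0.036) and Fgf4 (adjusted p = 0.047). It did not for Esrrb (adjusted p = 0.24), Tbx3 (0.29), Tcl1 (0.66), Nr5a2 (0.70) and Sox2 (0.88). Over all 11291 features tested in all 13 comparisons, 538 passed, 4.76%. The line #4 (B6) had the lowest level for 6 of the 10 members, and HM-1 and PDCUMNT had the highest for 3 each. How often all features were lowest or highest in each line was not counted. The members' median level in #4 (B6) was -0.29, with 1 of 10 above 0. Of all features, 51.0% were above 0 there, with a median of 0.0047. The #4 (B6) levels draw on #4 (B6) over HM-1 and B6NT over #4 (B6), whose dye orientations correlated.

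These levels treat the 52 arrays as separate measurements. With the 4 arrays of a comparison averaged to 1 value before the fit, none of the 10 members passed and 18 of all features did. With arrays of 1 dye orientation the counts of members were 0 (upper line in Cy5) and 1 (upper line in Cy3). The counts over all features with 1 orientation are not given here. Without the 3 comparisons whose dye orientations correlated, the adjusted p over the lines was 0.0010 for Pou5f1, 2.8e-04 for Lin28a and 0.012 for Utf1, while Nr0b1 (0.088) and Fgf4 (0.083) no longer passed. Without ZFCUMNT over HM-1 NT all 5 passed, Pou5f1 at 0.0021, Nr0b1 at 0.0028, Utf1 at 0.0028, Lin28a at 0.0065 and Fgf4 at 0.023.

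**Figure D2:**
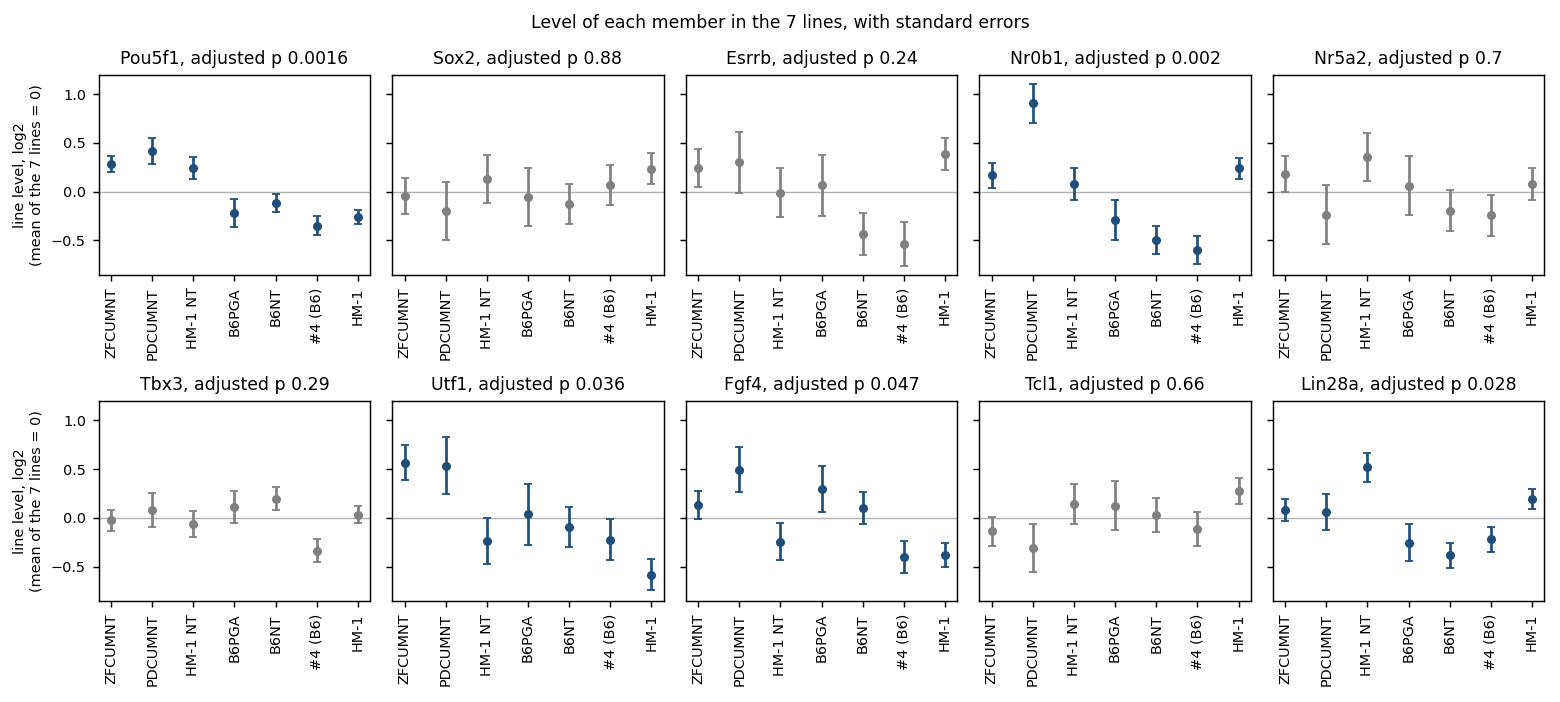
Level of each member (y axis, log2 relative to the mean of the 7 lines) in each line, with standard errors of the fit. Blue panels passed the F test over lines and grey ones did not. Pou5f1, Nr0b1 and Fgf4 are highest in PDCUMNT and lowest in #4 (B6).

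Of the 210 differences between lines that the levels give (21 pairs for 10 members), 9 passed with p-values adjusted over all features and pairs, 4.29%, against 0.702% over all features. All 9 belonged to Pou5f1, Nr0b1, Utf1 and Lin28a. No difference between lines next to each other in the order of levels passed for any member. The nearest were Nr0b1 in PDCUMNT over HM-1 (0.66 ± 0.24, limma adjusted p = 0.24) and Pou5f1 in HM-1 NT over B6NT (0.36 ± 0.14, adjusted p = 0.31), which exceeded 2 SE.

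Pou5f1, the POU-domain factor without which ES cells leave the pluripotent state, was higher in PDCUMNT and ZFCUMNT than in HM-1 and #4 (B6). In PDCUMNT over HM-1 its arrays read 0.88, 1.22, 0.46 and 0.93. All 4 lay above 0, and the fitted difference was 0.87 ± 0.22 (SE, 4 arrays; limma adjusted p = 0.031). Without array 1, 2 or 4 of that comparison the adjusted p was 0.059, 0.12 and 0.12. ZFCUMNT over HM-1 gave 0.51, 0.34, 0.31 and 0.059, also above 0 on all 4, for a difference of 0.30 ± 0.22. In ZFCUMNT over #4 (B6) the arrays read 1.09, 0.60, 0.55 and 0.41, and the difference of 0.66 ± 0.22 had an adjusted p of 0.13 in limma. These 3 comparisons and HM-1 NT over B6NT (0.53, 0.59, 0.53 and 0.0050) were the ones with every Pou5f1 array on the same side of 0.

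In the other Pou5f1 comparisons the arrays fell on both sides of 0. HM-1 NT over HM-1 read 0.50, 0.92, 0.46 and -0.061, and B6NT over HM-1 read 0.60, 0.58, 0.23 and -0.36. ZFCUMNT over B6NT was spread over 0.63, 0.32, 1.20 and -0.54, and B6NT over #4 (B6) over 1.27, 0.089, 0.23 and -0.89. Among these 4 the array with the lowest value was array 4 each time. The arrays of #4 (B6) over HM-1 were near 0 at 0.024, 0.29, -0.0020 and -0.17, as were those of B6PGA over HM-1 at -0.076, 0.12, -0.26 and -0.19. B6PGA over #4 (B6) had 3 measured arrays at 0.71, -0.028 and 0.091. ZFCUMNT over HM-1 NT read 0.67, -0.16, -0.13 and -0.22, and ZFCUMNT over PDCUMNT read -0.10, 0.33, -0.38 and 0.38, so ZFCUMNT was near both lines.

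Put together, the Pou5f1 level was 0.42 ± 0.13 in PDCUMNT, 0.28 ± 0.08 in ZFCUMNT, 0.24 ± 0.11 in HM-1 NT, -0.12 ± 0.09 in B6NT, -0.22 ± 0.14 in B6PGA, -0.26 ± 0.07 in HM-1 and -0.35 ± 0.10 in #4 (B6). From the levels, 4 pairs passed: PDCUMNT over HM-1 (0.68 ± 0.16, limma adjusted p = 0.021), ZFCUMNT over HM-1 (0.54 ± 0.12, adjusted p = 0.011), PDCUMNT over #4 (B6) (0.77 ± 0.19, adjusted p = 0.032) and ZFCUMNT over #4 (B6) (0.63 ± 0.14, adjusted p = 0.0087). PDCUMNT entered only 2 comparisons, so its level has a wider error than that of HM-1, which entered 6. Leaving out array 2 or 4 of PDCUMNT over HM-1 took PDCUMNT over HM-1 to adjusted p-values of 0.078 and 0.093. PDCUMNT over #4 (B6) was taken past 0.05 without array 1, 2 or 4 of the same comparison (0.052, 0.078 and 0.087) or without array 1 of ZFCUMNT over PDCUMNT (0.057).

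Sox2, the partner that binds DNA beside Pou5f1, did not pass in any comparison or over the lines. Its differences ran from -0.95 in HM-1 NT over HM-1 to 0.67 in HM-1 NT over B6NT, each with an SE of 0.45. The most extreme value split by dye, with arrays at -1.79, -2.60, 0.19 and 0.41. The low side came from the first of its 2 probes, which read -4.12 and -5.28 on those arrays while the second read 0.54 and 0.086, so the probes disagreed. The probes' F tests had adjusted p-values of 0.80 and 0.96 when each was fitted by itself. Sox2 levels lay between -0.20 ± 0.30 in PDCUMNT and 0.24 ± 0.16 in HM-1.

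Among the nuclear receptors, Nr0b1 alone passed over the lines. It is X-linked, is expressed in undifferentiated ES cells and binds Pou5f1 and Nr5a2. Its level was 0.90 ± 0.20 in PDCUMNT, 0.24 ± 0.11 in HM-1, 0.17 ± 0.13 in ZFCUMNT, 0.08 ± 0.17 in HM-1 NT, -0.29 ± 0.21 in B6PGA, -0.50 ± 0.14 in B6NT and -0.60 ± 0.14 in #4 (B6). The 3 lines with B6 in their name were the lowest for Nr0b1. From the levels, 3 pairs passed: PDCUMNT over #4 (B6) (1.50 ± 0.28, limma adjusted p = 0.0017), PDCUMNT over B6NT (1.40 ± 0.28, adjusted p = 0.0038) and #4 (B6) over HM-1 (-0.84 ± 0.19, adjusted p = 0.016). Without the 3 comparisons whose dye orientations correlated, PDCUMNT minus #4 (B6) was 1.28 and the adjusted p over the lines was 0.088, and #4 (B6) over HM-1 was -0.56 with an adjusted p of 0.57.

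Directly, Nr0b1 read 1.20, 0.97, 0.84 and 1.04 in PDCUMNT over HM-1, a tight set above 0 with a difference of 1.01 ± 0.33 (limma adjusted p = 0.13). In #4 (B6) over HM-1 it read -1.54, -1.61, -0.47 and -1.14, a difference of -1.19 ± 0.33 (adjusted p = 0.19). B6NT over HM-1 read -0.25, -1.05, -1.20 and -0.75. B6PGA over HM-1 read -0.26, -0.33, -0.43 and -0.78. So every array that set a line with B6 in its name against HM-1 was below 0, and no such comparison passed singly. These arrays share the HM-1 RNA, and the share of all features with this pattern was not counted.

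The remaining Nr0b1 comparisons were less even. ZFCUMNT over B6NT was above 0 on all arrays at 1.37, 0.93, 0.10 and 0.051. HM-1 NT over B6NT read -0.20, 0.61, 0.85 and 0.77. ZFCUMNT over #4 (B6) split by dye, at -0.71, -1.22, 1.68 and 2.40, and HM-1 NT over HM-1 did so at -0.45, -0.46, 0.091 and 0.34. Values near 0 on most arrays were seen in ZFCUMNT over HM-1 (-0.27, -0.18, 0.25 and -0.26), B6NT over #4 (B6) (0.23, -0.31, 0.050 and 0.27) and B6PGA over #4 (B6) (-0.17, 0.0040, 0.034 and 1.01). ZFCUMNT over HM-1 NT read 0.13, -0.0080, -0.50 and 0.61, and ZFCUMNT over PDCUMNT read -1.59, 0.34, 0.060 and -0.38, with array 1 far below the rest.

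Esrrb, an orphan receptor that can stand in for other members of the network, did not pass in any comparison or over the lines. Its level was 0.38 ± 0.17 in HM-1 and 0.30 ± 0.31 in PDCUMNT, against -0.44 ± 0.22 in B6NT and -0.54 ± 0.22 in #4 (B6). In #4 (B6) over HM-1 its arrays read -1.58, -2.51, -0.69 and -0.61, for a difference of -1.35 ± 0.47 (limma adjusted p = 0.58). Its highest difference was 1.14 ± 0.55 in ZFCUMNT over #4 (B6), where 1 of 3 measured arrays had the opposite sign. Nr5a2, the receptor that binds the Pou5f1 promoter, had differences from -0.67 in #4 (B6) over HM-1 to 1.08 in ZFCUMNT over PDCUMNT, with an SE of 0.46. The latter value came from arrays at -0.16, 1.58, 3.87 and -0.99, which fell on both sides of 0.

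Tbx3, a T-box repressor downstream of LIF and PI3K signals, was lowest in #4 (B6) at -0.33 ± 0.12 and highest in B6NT at 0.20 ± 0.12. Its arrays read 0.94, 1.09, 0.44 and 0.19 in B6NT over #4 (B6), all above 0, a difference of 0.66 ± 0.23 (limma adjusted p = 0.45). They were above 0 in B6PGA over HM-1 as well, at 0.85, 0.62, 0.42 and 0.24, and below 0 in ZFCUMNT over HM-1, at -0.38, -0.36, -0.55 and -1.01. The highest difference was 0.72 ± 0.23 in ZFCUMNT over #4 (B6) (adjusted p = 0.11). Its 2 probes disagreed: fitted by itself the first passed over the lines (adjusted p = 0.021) and the second did not (adjusted p = 0.50), and their levels in PDCUMNT were -0.28 and 0.41.

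**Figure D3:**
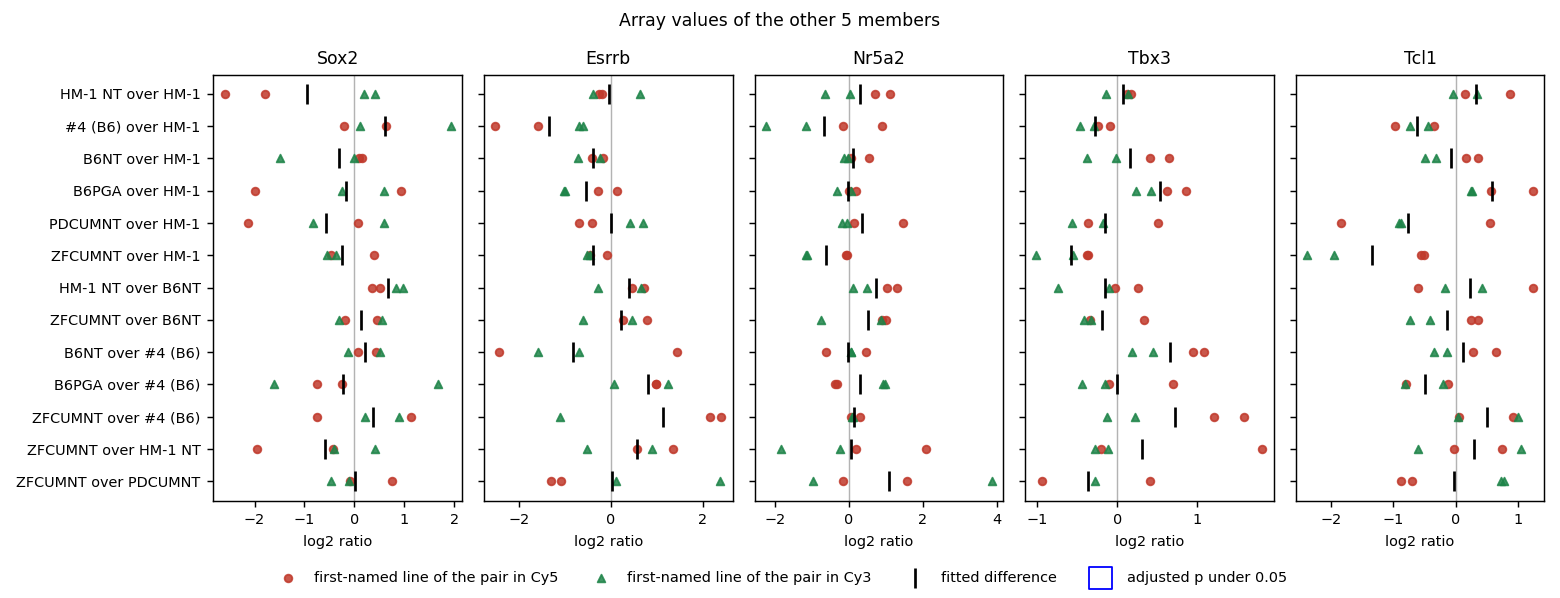
Log2 ratios (x axis, own range in each panel) of Sox2, Esrrb, Nr5a2, Tbx3 and Tcl1 on each array of the 13 comparisons (rows), circles with the upper line in Cy5 and triangles with it in Cy3. Bars mark the fitted difference. No value passed an adjusted p of 0.05, and several rows fall on both sides of 0.

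Utf1, a chromatin factor expressed in pluripotent and germ cells, had its lowest level in HM-1. In PDCUMNT over HM-1 it read 1.50, 1.72, 0.99 and 1.02, a difference of 1.31 ± 0.42 (limma adjusted p = 0.12). In ZFCUMNT over HM-1 it read 1.51, 1.52, 1.13 and 0.82, a difference of 1.25 ± 0.42 (adjusted p = 0.45). All 8 of these arrays were above 0. B6NT over HM-1 gave 1.24, 1.40, 0.72 and 0.34, and B6PGA over HM-1 gave 0.61, 0.55, 0.086 and 0.11, again all above 0. ZFCUMNT over B6NT read 1.34, 1.63, 1.55 and 1.03, a difference of 1.39 ± 0.42 (adjusted p = 0.30), and HM-1 NT over B6NT was below 0 throughout at -0.68, -0.44, -1.36 and -1.06.

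Other Utf1 comparisons had wide spreads. B6NT over #4 (B6) read -2.85, 1.21, -0.60 and 0.97, and ZFCUMNT over #4 (B6) read 3.26, -1.15, 0.75 and 0.046. B6PGA over #4 (B6) had 3 arrays, at 0.33, -0.23 and 1.60. The second Utf1 probe was not measured in B6NT over #4 (B6) or B6PGA over #4 (B6), or on arrays 1 and 2 of ZFCUMNT over #4 (B6). It was also missing on arrays 2, 3 and 4 of ZFCUMNT over B6NT and on array 3 of ZFCUMNT over PDCUMNT. On array 4 of ZFCUMNT over #4 (B6) the probes disagreed, at -0.74 and 0.83. HM-1 NT over HM-1 split by dye at 0.55, 0.55, -0.23 and -0.33. The arrays were at 0.27, 0.39, 0.015 and -0.13 in #4 (B6) over HM-1, at -0.47, 0.63, -1.08 and 0.33 in ZFCUMNT over HM-1 NT, and at 0.79, 0.30, 0.079 and -0.29 in ZFCUMNT over PDCUMNT.

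The Utf1 level was 0.57 ± 0.18 in ZFCUMNT, 0.53 ± 0.29 in PDCUMNT, 0.04 ± 0.31 in B6PGA, -0.09 ± 0.21 in B6NT, -0.22 ± 0.21 in #4 (B6), -0.24 ± 0.24 in HM-1 NT and -0.58 ± 0.16 in HM-1. ZFCUMNT over HM-1 was the only Utf1 pair that passed from the levels (1.15 ± 0.26, limma adjusted p = 0.013). Without the 3 comparisons whose dye orientations correlated it was 0.88, with an adjusted p of 0.11 for the pair and 0.012 over the lines. The first probe fitted by itself did not pass over the lines (adjusted p = 0.074). Leaving out any of 13 arrays ended the call over the lines, with adjusted p-values up to 0.067.

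Fgf4, the growth factor that primes ES cells for lineage entry, was above 0 on every array in 5 of its 6 comparisons with HM-1. Against HM-1 its arrays were above 0 in HM-1 NT (0.16, 0.39, 0.57 and 0.63), B6NT (0.086, 0.90, 0.43 and 0.72), B6PGA (0.84, 0.61, 0.34 and 0.51), PDCUMNT (0.87, 0.68, 0.52 and 0.50) and ZFCUMNT (0.25, 0.47, 1.19 and 0.85). All 20 of these arrays lay above 0, the fitted differences ran from 0.43 to 0.69 with an SE of 0.37, and no adjusted p was under 0.05. The HM-1 RNA is shared by these comparisons. Fgf4 in #4 (B6) over HM-1 read -0.63, -0.25, -0.28 and 0.27.

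Against #4 (B6), Fgf4 was above 0 in B6PGA (0.45, 0.88, 0.95 and 0.90) and ZFCUMNT (0.13, 0.022, 0.38 and 2.25), while B6NT gave 0.41, 0.30, -0.64 and 0.13. The ZFCUMNT value rests on array 4. HM-1 NT over B6NT read 0.19, -0.31, -0.85 and -2.13, and ZFCUMNT over B6NT read 0.34, 0.14, -0.28 and 0.031. The last pair of comparisons was uneven, with ZFCUMNT over HM-1 NT at -0.35, 0.55, -1.09 and 1.90 and ZFCUMNT over PDCUMNT at 0.62, -0.78, -2.64 and 0.43.

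The Fgf4 level was 0.50 ± 0.23 in PDCUMNT, 0.29 ± 0.24 in B6PGA, 0.14 ± 0.14 in ZFCUMNT, 0.10 ± 0.16 in B6NT, -0.25 ± 0.19 in HM-1 NT, -0.38 ± 0.13 in HM-1 and -0.40 ± 0.16 in #4 (B6). No pair of lines passed. The call over the lines was at the edge of the threshold: it was lost without any of 38 of the 52 arrays, with adjusted p-values up to 0.070, and it was 0.083 without the 3 comparisons whose dye orientations correlated and 0.20 without the comparisons of B6PGA.

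Lin28a, the RNA-binding protein that holds back let-7, was higher in HM-1 NT than in B6NT. Its arrays read 0.93, 1.12, 1.40 and 1.50 in that comparison, far above 0 in both dye orientations, a difference of 1.24 ± 0.26 (limma adjusted p = 0.0093). With array number as a replicate block the difference was 1.04 and the adjusted p was 0.079. B6NT over HM-1 was below 0 on all arrays at -1.10, -0.68, -0.65 and -1.06 (-0.87 ± 0.26, adjusted p = 0.22), and so was B6PGA over HM-1 at -0.71, -0.83, -0.45 and -1.19 (-0.79 ± 0.26, adjusted p = 0.24). B6PGA over #4 (B6) was above 0 on all arrays, at 0.52, 0.19, 0.22 and 0.33.

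In 7 comparisons the Lin28a sign followed the dye. The widest split was in #4 (B6) over HM-1, at -1.36, -0.71, 1.24 and 1.08, for a mean of 0.06. HM-1 NT over HM-1 read -0.0050, -0.39, 1.34 and 1.02, and ZFCUMNT over #4 (B6) read -0.52, -0.13, 0.44 and 0.52. ZFCUMNT over B6NT ran the other way, at 1.09, 0.25, -0.33 and -0.29. Smaller splits were seen in PDCUMNT over HM-1 (-0.55, -0.18, 0.17 and 0.036), ZFCUMNT over HM-1 (-0.26, -0.38, 0.030 and 0.14) and ZFCUMNT over HM-1 NT (-0.17, -0.33, 0.096 and 0.65). In 6 of the 7 the arrays with the upper line in Cy3 were the higher ones. B6NT over #4 (B6) read 0.32, 0.38, 0.052 and -0.035, and ZFCUMNT over PDCUMNT read 0.021, -0.43, 0.23 and 0.25.

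The Lin28a level was 0.52 ± 0.15 in HM-1 NT, 0.19 ± 0.10 in HM-1, 0.08 ± 0.11 in ZFCUMNT, 0.06 ± 0.18 in PDCUMNT, -0.22 ± 0.13 in #4 (B6), -0.25 ± 0.19 in B6PGA and -0.38 ± 0.13 in B6NT. The 3 lines with B6 in their name were the lowest, as for Nr0b1 but for no other member. For Tbx3, B6NT (0.20) and B6PGA (0.11) were the highest. HM-1 NT over B6NT was the only pair that passed from the levels (0.90 ± 0.19, limma adjusted p = 0.0085). The call over the lines was lost without any array of HM-1 NT over B6NT (adjusted p from 0.066 to 0.077) or without array 4 of B6NT over HM-1 (0.055), and it was 0.072 without the comparisons of B6PGA.

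Tcl1, which augments Akt signalling in ES cells, came near the threshold in ZFCUMNT over HM-1. Its arrays there read -0.51, -0.56, -2.39 and -1.95, a difference of -1.35 ± 0.32 (limma adjusted p = 0.097). All 4 were below 0, and those with ZFCUMNT in Cy3 were the lower. The measured difference minus that given by the line levels was -0.94 here, the widest such gap for Tcl1, and over the lines Tcl1 did not pass. Its level lay between -0.31 ± 0.25 in PDCUMNT and 0.27 ± 0.13 in HM-1.

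Lines joined by several routes allow a check of whether the comparisons add up. The network holds 7 independent cycles, and an F test asked for each feature whether the sums around them departed from 0. None of the 10 members and none of 11291 features passed after adjustment in limma (0%), while 691 features (6.12%) and 4 of the 10 members had an unadjusted p under 0.05. These members were Tcl1 (0.0015, adjusted p = 0.40), Tbx3 (0.011), Lin28a (0.026) and Utf1 (0.046), so their measured differences added up least well around the cycles. The measured difference was within 2 SE of that from the levels in all 13 comparisons for 7 members, in 12 for Tbx3 and Utf1, and in 10 for Tcl1. The correlation of measured and level-based differences over the 13 comparisons was 0.95 for Nr0b1, 0.90 for Fgf4, 0.88 for Pou5f1, 0.82 for Lin28a, 0.81 for Esrrb, 0.73 for Utf1, 0.67 for Tbx3, 0.59 for Nr5a2, 0.50 for Sox2 and 0.47 for Tcl1. These are descriptions, since the levels were fitted to the same arrays.

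**Figure D4:**
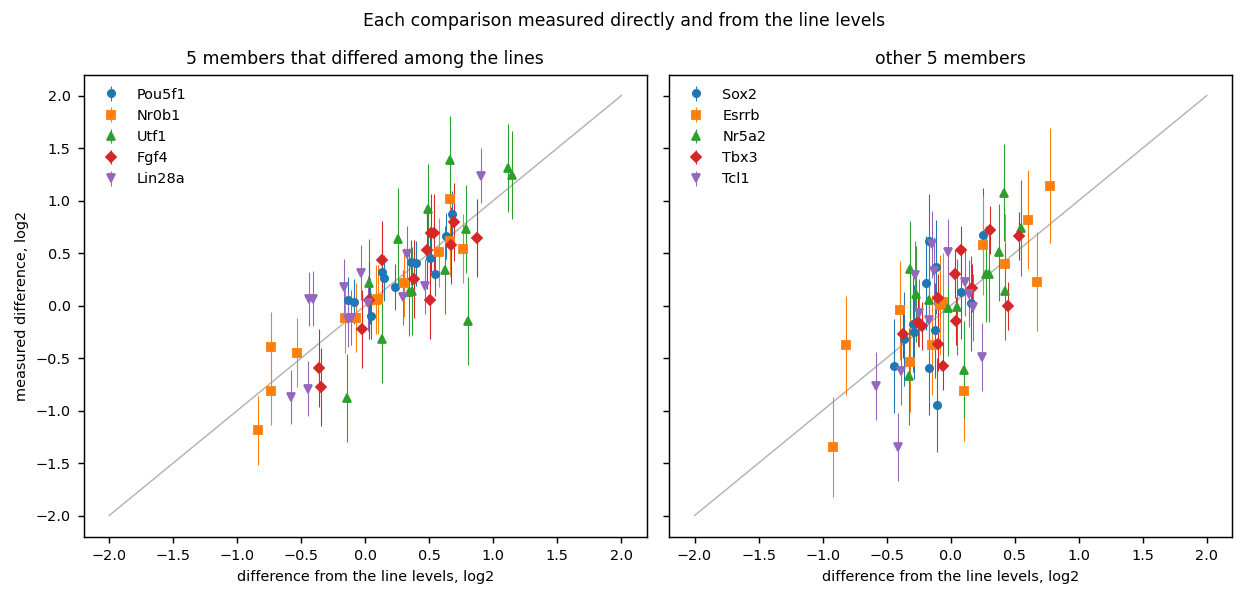
Difference in each comparison measured directly (y axis, log2, with standard error) against that given by the line levels (x axis, log2), 1 point for each member and comparison. The grey line marks equality. Points of Nr0b1 and Fgf4 lie on the same side of 0 on both axes in all 13 comparisons.

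The design also sets HM-1 NT over HM-1 beside B6NT over #4 (B6), the comparisons of an NT line with the line that shares the rest of its name. The labels do not state that the NT line derives from the other. The difference between these differences did not pass for any member in limma (adjusted p of 0.988 or more for all 10), while 30 of 15227 features passed, 0.197%. Pou5f1 had 0.46 in HM-1 NT over HM-1 and 0.18 in B6NT over #4 (B6), a difference of 0.28 ± 0.30. The largest was that of Sox2, at -1.17 ± 0.63, which rests on the disagreeing probes.

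A wider list of 48 pluripotency genes and genes of the LIF, Nodal and FGF pathways had a probe for 28, and 25 were tested over the lines. Of these, 12 passed (48%), against 4.76% of all features. The list was chosen with earlier results of these data known, so the 48% is a description and not a test of the list. In PDCUMNT over HM-1, where Pou5f1 passed, the list had 0 of 28 genes called higher and 2 lower, Zfp42 and Lefty2. Zfp42 (Rex1), a zinc-finger marker of naive ES cells, was lower in PDCUMNT at -1.74, -2.51, -2.48 and -3.37 (-2.53 ± 0.41, limma adjusted p = 5.6e-04). Lefty2, an inhibitor of Nodal, read -1.85, -1.90, -1.96 and -1.92 there (-1.91 ± 0.25, adjusted p = 5.0e-06). Neither was particular to PDCUMNT. Against HM-1, Zfp42 was also called lower in #4 (B6) (-2.85), B6NT (-2.90), B6PGA (-2.14) and ZFCUMNT (-2.44). Lefty2 was also called lower than in HM-1 in HM-1 NT (-1.08), #4 (B6) (-1.29) and ZFCUMNT (-2.51). In HM-1 NT over B6NT, where Lin28a passed, Zfp42 was higher at 2.24 ± 0.41 (adjusted p = 0.0021) and Lefty2 lower at -1.64 ± 0.25 (adjusted p = 1.7e-04), of 26 genes tested. The list's medians were -0.012 and 0.11 in these comparisons, against -0.082 and 0.012 for all features.

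The line #4 (B6), lowest for 6 members, was also low in the wider list, with a median level of -0.15. In that line 7 of 25 genes were above 0, against 51.0% of all features. Klf4, Dppa5a and Sall1, chosen for mention after their values were seen, were lower there than in HM-1, at -0.82 ± 0.18, -1.41 ± 0.20 and -1.78 ± 0.35 (limma adjusted p = 0.029, 1.9e-04 and 0.011). That comparison is among those whose dye orientations correlated. In B6PGA over #4 (B6), which is not, they were 1.81 ± 0.18, 1.81 ± 0.20 and 2.80 ± 0.35 (adjusted p = 2.1e-08, 1.9e-07 and 3.3e-06). In ZFCUMNT over #4 (B6) all 10 members had a fitted difference above 0, with a median of 0.60, while 55.8% of all features were above 0 with a median of 0.076. This was the most of the 13 comparisons and was chosen for mention after its value was seen. The others had 3 (ZFCUMNT over HM-1) to 8 members above 0, among them 7 in B6NT over #4 (B6) and 7 in B6PGA over #4 (B6). None of the 10 passed by itself in ZFCUMNT over #4 (B6). The arrays of that comparison fell on both sides of 0 for Sox2, Esrrb, Nr0b1, Tbx3, Utf1 and Lin28a. From the line levels, the same pair was below 0 for Sox2 (-0.11) and Tcl1 (-0.021) and above 0 for the other members.

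Markers of other cell types moved between the lines as well. Of 16 fibroblast and feeder markers tested over the lines 12 passed (75%), against 4.76% of all features. The marker lists too were chosen with earlier results known. The fibroblast markers' median level was -0.01 in ZFCUMNT, -0.14 in PDCUMNT, 0.11 in HM-1 NT and 0.44 in B6PGA. It was -0.29 in B6NT, 0.09 in #4 (B6) and -0.31 in HM-1. All 16 were below 0 in HM-1 and 15 were above 0 in B6PGA. Of all features, 58.8% were above 0 in HM-1 and 49.3% in B6PGA. In PDCUMNT over HM-1, 0 of 20 of these markers passed, against 1.14% of all features, and their median was 0.033. In HM-1 NT over B6NT, 1 of 19 passed, Col1a2, and their median was 0.44. There 1 of 7 trophectoderm markers passed, Krt8, with a list median of 0.49, and 1.04% of all features did. Over the lines 2 of 4 trophectoderm markers passed, Krt8 and Ascl2, and their median was 0.56 in HM-1 NT. Endoderm markers passed in 1 of 9, the gene Sparc, which is also on the fibroblast list. These are ratios between lines, so they do not say how many cells of another type a culture held, fewer ES cells and less RNA per cell cannot be told apart, and the part of these markers in the members' differences was not tested.

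**Figure D5:**
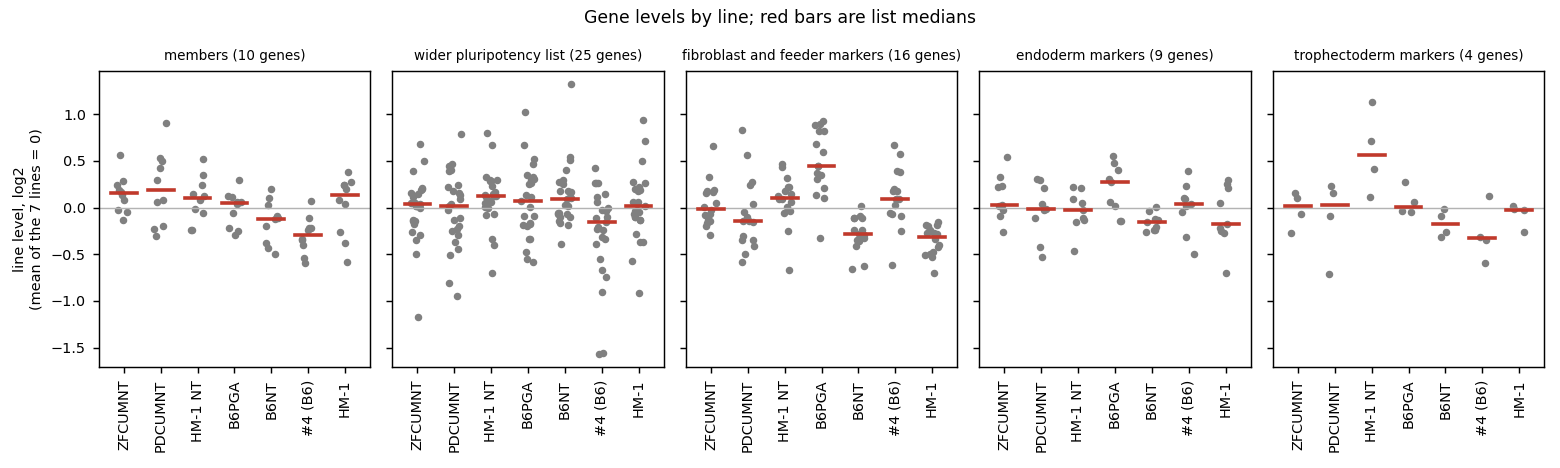
Level in each line (y axis, log2 relative to the mean of the 7 lines) of the genes of 5 lists, each point a gene and each red bar the list's median. The members are lowest in #4 (B6), the fibroblast markers highest in B6PGA and lowest in HM-1, and the trophectoderm markers highest in HM-1 NT.

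Across the 13 comparisons the genes most like each member were sought among 6442 other named genes measured in all of them. Mcm6 was closest to Pou5f1 (Pearson r = 0.93), followed by Atf7ip and Armc1 (0.88 and 0.87). Psmc3, Haspin and Hlcs (each 0.85) were closest to Nr0b1, Egln3 (0.88), Mrps24 and Celsr3 (each 0.80) to Utf1, and Mylk (0.85), Cul1 (0.81) and Mrps24 (0.80) to Fgf4. Csnk1a1 (0.86), Nit2 (0.85) and Golm1 (0.84) were closest to Lin28a. The comparisons share lines and arrays, so these correlations over 13 points describe likeness only, and of these genes only Nit2 passed the F test over lines (limma adjusted p = 0.0086).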

How the data were processed

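The deposited table holds 1 log ratio per probe and array, read here as log2 since the values lie on both sides of 0. The labels' protocols state reverse transcription of total RNA and indirect Cy3 or Cy5 labelling. The scanner, background correction and normalization are not given in the sources used here, and the table carries no counts, so the number of arrays limits the precision. Every array column was used (0 left out). Probes were named by the platform annotation, the constant top value of each array was set to missing, probes of a gene were averaged to give 17053 features, and ratios were turned by the dye labels.

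The 13 comparisons entered a joint fit over all features that held a dye term (lmFit, then eBayes, from limma 3.58.1 under R 4.3.3). Testing in a comparison needed values on 3 of its 4 arrays, with both orientations among them, and p-values were adjusted by Benjamini-Hochberg at 0.05. Line levels, F tests, pairs and cycles used the same values and features tested in all 13 comparisons. The fits were also run on simulated data with independent noise on every array. That run does not bear on whether the 4 arrays of a comparison are independent, and its outcome is not given here.

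All 10 members were named, those that passed with every array and the others by range. Wider-list genes were named where they passed beside a member. The members and lists were chosen with earlier results of these data known.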

Additional observations from a re-analysis of the deposited data

Results flagged for a closer look

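In 10 of the 126 sets of 4 arrays a single array stood apart from the other 3 by Dixon's test, and chance gives about 1 in 20. For Pou5f1, array 4 of HM-1 NT over B6NT read 0.0050 while the others lay between 0.53 and 0.59, and array 1 of ZFCUMNT over HM-1 NT read 0.673, with the others between -0.22 and -0.13. Sox2 read -1.484 on array 4 of B6NT over HM-1 (others from -0.0090 to 0.14). Esrrb read -0.091 on array 2 of ZFCUMNT over HM-1 (others from -0.51 to -0.45). Nr5a2 read -0.744 on array 3 of ZFCUMNT over B6NT (others from 0.87 to 0.99) and 0.308 on array 1 of ZFCUMNT over #4 (B6) (others from 0.064 to 0.10). Tbx3 read 0.328 on array 2 of ZFCUMNT over B6NT (others from -0.42 to -0.33) and 1.814 on array 1 of ZFCUMNT over HM-1 NT (others from -0.28 to -0.12). Fgf4 read 0.454 on array 1 of B6PGA over #4 (B6) (others from 0.88 to 0.95) and 2.247 on array 4 of ZFCUMNT over #4 (B6) (others from 0.022 to 0.38). ZFCUMNT was in 7 of these 10 sets, but it also entered more comparisons than any line except HM-1. The share of all features flagged by this rule was not counted. The causes were not tested.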

How the results depend on the processing

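Over the 13 comparisons the 2 member calls became 5 with arrays scaled to equal spread, 7 with array weights, 1 without the dye term and 0 with each comparison fitted alone, where 0 of all features passed too. Leaving out an array gave 1 to 3. Pou5f1 in PDCUMNT over HM-1 had an adjusted p of 0.083 with equal spread and 0.088 without the dye term, and Lin28a in HM-1 NT over B6NT had 0.056 with equal spread. Over the lines the 5 calls became 2 without the dye term, 3 with array number as replicate block, 3 without the 3 comparisons whose dye orientations correlated and 3 without the B6PGA comparisons. With all 4 arrays required the count was 3, since Pou5f1 and Utf1 each lack an array and were not tested, and the other called members passed. They became 0 with 4 arrays averaged to 1 value, 0 with ratios not turned by dye, 0 with the upper line in Cy5 only and 1 with it in Cy3 only. Leaving out an array gave 3 to 5. The 9 pairs became 14 with array weights and 0 with averaging, with ratios not turned or with either orientation alone, and 5 to 13 without an array. The closure count was 0 in every setting run and without any array; it was not run on averaged arrays, whose residual is the cycles themselves. The averaged fits and those of 1 orientation have fewer values by construction, and the cause of the other changes was not tested. Except where stated, counts over all features are not set beside the member counts of this section. The changes are therefore not results about the members.

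Signs of called values turned only with ratios not turned by dye, a setting that goes against the labels. There Lin28a in HM-1 NT over B6NT was -0.21 directly and -0.090 from the levels, Nr0b1 was -0.28 in PDCUMNT minus #4 (B6) and 0.29 in #4 (B6) over HM-1, and Fgf4 was -0.24 in PDCUMNT minus #4 (B6). Of values that were not called, Nr5a2 in HM-1 NT minus #4 (B6) and Tcl1 in HM-1 minus PDCUMNT also turned there (-0.38 and -0.62) and with the upper line in Cy5 only (-0.41 and -0.039).

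Whether array numbers pair the arrays was not settled. Comparison means and the dye term were removed, and deviations were correlated over 312 pairs of the same number. The correlations ran from -0.26 to 0.23 (median -0.033), 8 were above 0.1, and 0 arrays were closest to their own number. Each number always had the same dye orientation, so removing these terms by itself pushes correlations within a number down. These values therefore cannot decide whether arrays were paired. With the replicate block the counts were 3 over the comparisons, 3 over the lines, 10 over the pairs and 0 in the closure test.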
